A study of Drosophila melanogaster with 13 samples.

Results

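Open chromatin was compared directly between 2 kinds of overgrown eye-antennal imaginal disc of Drosophila melanogaster, Ras/scrib tumors and discs that overexpress the cytokine Unpaired (Upd). The comparison holds 4 ATAC-seq libraries of the 13 samples of the series, 2 from tumors (1 early, 1 late) and 2 from Upd discs, chosen by genotype label and assay, and it covers every merged peak with a read in them, 36505 of 36506 regions of the count table. No wild type library entered the test. The 3 wild type ATAC-seq libraries, and 2 tumor and 2 wild type libraries of FAIRE-seq, a second assay of open chromatin, are given beside the results as levels and as an independent measurement.

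The tumors came from crossing flies with UAS-RasV12 and the scrib2 allele on an FRT82 chromosome to a y,w tester. That tester carried eyFlp, the cassette act>y+>Gal4 with UAS-GFP, and an FRT82 chromosome with Tub-Gal80. In the eye-antennal discs of this cross the eyeless-driven flippase makes GFP-marked clones that lose scrib, a cell polarity gene, and express the activated RasV12. The tumor samples are therefore mosaics, and the study's methods and text describe early discs that still held much normal tissue and late discs collected from larvae that kept wandering without pupating. The Upd discs came from GMR-gal4 crossed to UAS-UPD:GFP. GMR-gal4 is active in the differentiating part of the eye disc, so the transgene is driven in only part of the dissected tissue, while the ligand is secreted. The wild types were w;;FRT82, DGRP-208 (RAL-208) and Optix-GFP discs. All labels give wandering larvae of the third instar. The paper's methods give 1 day of dissection for wild type, early tumor and Upd discs and a later day for late tumors. For the late tumor, age and genotype therefore cannot be told apart. The 2 crosses differ in strain background, so that background and genotype cannot be told apart either. The early and late tumor were treated as 1 group, so their difference in stage counts as spread. Nothing in the labels says that the 2 Upd libraries came from separate crosses, and the p-values measure the spread between these 4 samples.

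ATAC-seq cuts DNA with a transposase where nucleosomes leave it exposed, so a high read count marks an enhancer or promoter that is open in many of the cells. In a mixed tissue, fewer cells with an open region and a lower opening per cell cannot be told apart. Upd is the ligand of the receptor Domeless. It activates the kinase Hopscotch and the transcription factor Stat92E, a pathway known for promoting growth in the eye disc. Loss of scrib with active Ras is known to add Jun kinase signalling, which acts through AP-1 factors, to Ras/MAPK signalling, and tumors of this kind express Upd ligands themselves.

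Depth was 5452448 reads in merged peaks in the early tumor, 10871706 in the late tumor, 5967280 in Upd Rep1 and 7549137 in Upd Rep2, and 7104145 to 8256157 in the wild types. Of the regions, 32712 to 35857 had at least 10 reads in each of the 4 libraries of the comparison. Levels are given as CPM, counts per 1000000 reads in merged peaks after TMM scaling over the 7 ATAC-seq libraries. Replicates differed by more than sampling noise: the chi-square statistic divided by its degrees of freedom was 6.59 for the 2 tumors and 2.85 for the 2 Upd libraries. Over the 35728 regions with a mean of at least 10 reads, the median absolute difference on the log2(CPM + 1) scale was 0.28 between early and late tumor and 0.20 between the Upd libraries, against 0.58 between the tumor and Upd means.

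The label of the Upd discs could be checked at os, the gene that encodes Upd. Within 10 kb of the region paired with os, 4 regions were lower in tumors than in Upd discs, 1.54 to 2.64 kb away from it, with log2 fold changes of -2.03 to -2.94. The strongest of them (chrX:18200211-18200484, coordinates of build dm3 throughout) had 1.76 and 1.93 CPM in early and late tumor, against 12.7 and 16.1 CPM in Upd discs and 2.21 to 3.89 CPM in wild types. At the one nearest to the os region (chrX:18201232-18201588) the levels were 3.91 and 3.86 CPM in tumors, 14.9 and 16.8 CPM in Upd discs and 1.11 to 4.76 CPM in wild types. Only the Upd libraries were high at both. These regions were singled out after their values were seen. Whether their reads came from copies of the transgene or from the gene itself cannot be told apart here. No region of the count table was paired with scrib or Ras85D, so the tumor genotype could not be checked in the same way.

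Tumors and Upd discs differed at 11800 regions, 32.3% of those tested (edgeR quasi-likelihood F-test, Benjamini-Hochberg adjusted p below 0.01). Tumors were more open at 5941 of them (16.3%) and less open at 5859 (16%). The median log2 fold change was 1.57 over the regions higher in tumors and -1.62 over those lower in tumors, against -0.01 over all regions tested. A change of at least 2-fold was found at 4858 of the regions higher and 5243 of those lower in tumors, and one of at least 8-fold at 323 and 127. At all 11800 regions the 2 tumor values and the 2 Upd values did not overlap, but this held for 72.4% of all regions tested and 59.3% of those not past the threshold, so non-overlap says little by itself. The even split between directions rests on the scaling: 50.3% of the calls were higher in tumors after TMM scaling, but 39.8% (4829 higher, 7309 lower) when libraries were scaled by their total counts, which moved the median of all regions to -0.18. With 1 Upd library left out, the calls fell to 7076 (without Rep1) and 7585 (without Rep2). Leaving out a tumor library gave 13431 calls (late tumor only) and 11556 calls (early tumor only), and none of the calls shared with the full comparison changed direction in any of these.

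**Figure D1:**
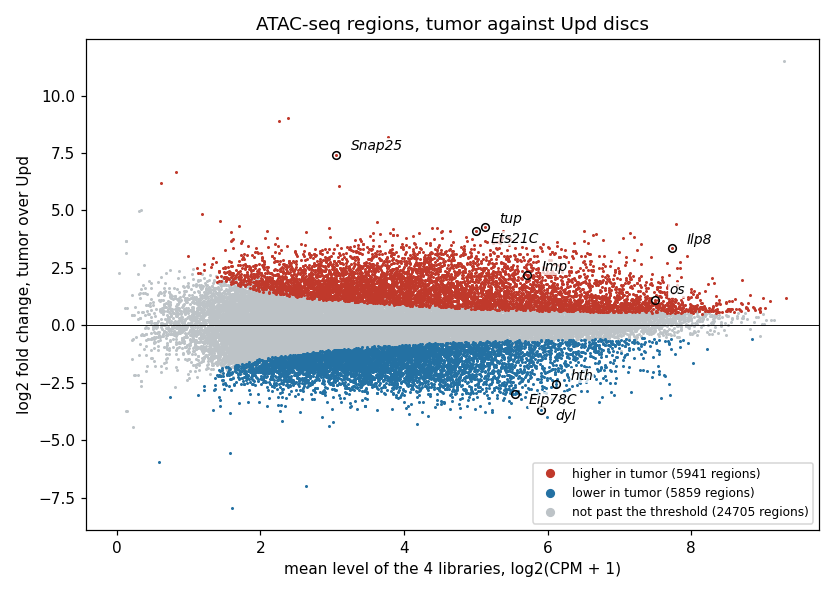
Log2 fold change of tumor over Upd (vertical axis) against the mean level of the 4 libraries as log2(CPM + 1) (horizontal axis), 1 point a region. Red points are the 5941 regions higher in tumors, blue points the 5859 lower in tumors and grey points the 24705 not past the threshold, and circles mark regions paired with genes named in the text, such as Ets21C at 4.10 and dyl at -3.67.

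The regions that differed were wider than the others. Their median width was 368 bp for those higher in tumors and 340 bp for those lower, against 236 bp for regions not past the threshold. They also had higher levels, with a median of 20.2 and 13.1 CPM over the 4 libraries, against 8.86 CPM. A region with more reads passes a count test more easily, and the part of this in the widths was not tested. Of the regions higher in tumors, 72.5% had another such region within 5 kb, against 43.3% of all regions tested, and 40.1% had one that was lower, against 41% of all. Of those lower in tumors, 65.7% had another lower one and 36.3% a higher one within that distance. These shares are descriptions with no test. The median signed difference of late minus early tumor on the log2(CPM + 1) scale was 0.09 at regions higher in tumors, -0.01 at those lower in tumors and 0.03 at the rest, which does not measure how far the 2 tumors differed at single regions.

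Wild type discs lay with the Upd discs at most of these regions. At the regions higher in tumors, the median level was 29.5 and 32.0 CPM in early and late tumor, 8.89 and 9.24 CPM in Upd discs and 8.03 to 9.23 CPM in the 3 wild types. At those lower in tumors it was 6.06 and 5.99 CPM in tumors, 19.5 and 19.6 CPM in Upd discs and 19.4 to 20.5 CPM in wild types. The wild type mean was nearer to the Upd mean than to the tumor mean at 5718 of the 5941 regions higher in tumors and at 5549 of the 5859 lower in tumors (96.2% and 94.7%, against 77.2% of all regions tested). The wild types were nearer the tumors at the other 223 (3.75%) and 310 (5.29%), against 22.8% of all regions. These shares were counted on regions chosen by the tumor and Upd values and are a description with no test.

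**Figure D2:**
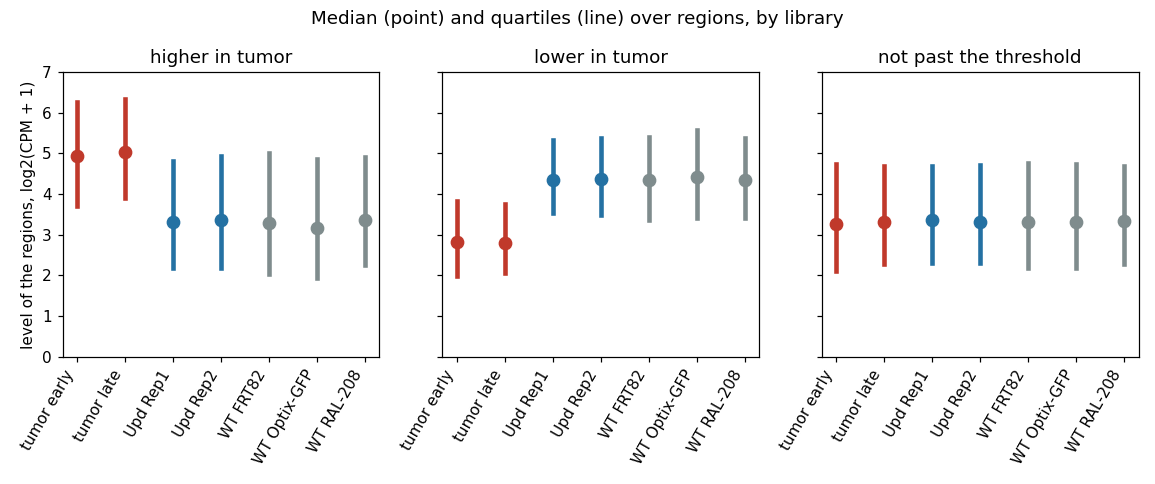
Level of the regions in each ATAC-seq library as log2(CPM + 1), for regions higher in tumors, lower in tumors and not past the threshold. Points are medians over regions and lines run between the quartiles. At the regions higher in tumors the medians are 4.93 and 5.04 in the tumors, 3.31 and 3.36 in Upd discs and 3.18 to 3.35 in wild types, and at those lower in tumors they are 2.82 and 2.80 in the tumors, 4.36 and 4.37 in Upd discs and 4.35 to 4.43 in wild types.

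The peak lists called separately in each library gave a coarser view of the same regions. Both tumors and neither Upd library had a peak (an overlap of at least 1 bp) at 1969 of the 5941 regions higher in tumors (33.1%), and 1594 of these had none in any wild type either. Among regions not past the threshold this share was 2.2%. Both Upd libraries and neither tumor had one at 2849 of the 5859 regions lower in tumors (48.6%), of which 2059 had a peak in all 3 wild types and 106 in none. Among regions not past the threshold this share was 4.2%. All 4 libraries had a peak at 37.3% of the regions higher and 20.2% of those lower in tumors, against 38.4% of those not past the threshold. These shares depended on the overlap asked for: with peaks over at least 0.5 of the merged region they were 23.2%, 8.31% and 25.9%.

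FAIRE-seq, which has no Upd library, measured tumors against wild types in other samples. At the regions higher in tumors by ATAC-seq, 94.1% were also higher in FAIRE-seq tumors than in FAIRE-seq wild types, with a median FAIRE-seq log2 fold change of 0.72. At those lower in tumors, 94.5% were lower by FAIRE-seq, with a median of -0.76. Over all regions tested, 50.7% were higher and the median was 0.01. The FAIRE-seq test itself called few regions, 1.58% higher and 0.781% lower in tumors, among them 565 of the regions higher and 278 of those lower in the ATAC-seq comparison, and none in the opposite direction. A share without an adjusted threshold was larger, as the 2 FAIRE-seq tumors lay above both wild types at 75.7% of the regions higher and below both at 72.2% of those lower in tumors, against 28.5% and 25.9% over all regions. Depth in FAIRE-seq was 2375435 to 5792887 reads in merged peaks.

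**Figure D3:**
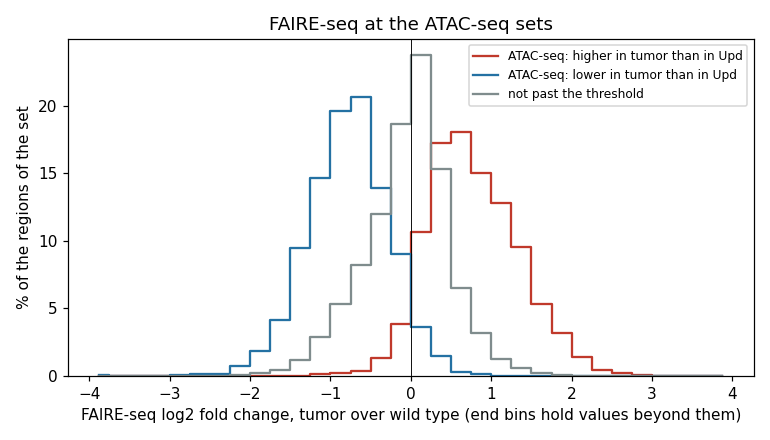
Distribution of the FAIRE-seq log2 fold change of tumor over wild type (horizontal axis) over the regions of each ATAC-seq set, as a percentage of the set (vertical axis). Regions higher in tumors than in Upd discs have a median of 0.72 and those lower have a median of -0.76, while regions not past the threshold sit around 0.

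Single regions could be tied to genes only through the pairs of region and gene that the study listed for openings and closings in tumors. Those lists were picked on tumors against wild types in these same samples, so that the direction of their members is not independent evidence. Of the 209 regions of the opening list, 187 were higher in tumors than in Upd discs (89.5%, where 16.3% of all regions were), none was lower, and the median log2 fold change was 1.99. Of the 276 regions of the closing list, 263 were lower (95.3%, where 16% of all regions were), none was higher, and the median was -1.98. The members not past the threshold, 22 and 13, kept the sign of their list. Upd discs stood apart from the wild types at some of these regions. Both Upd libraries were above all 3 wild types, on the side of the tumors, at 43 regions of the opening list (20.6%, against 12.8% of all regions), and below all 3 at 97 regions of the closing list (35.1%, against 12.2%). The wild type values had a part in choosing the lists, so these shares are given without a test.

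The gene groups described next met these lists at 56 regions of the opening list, of which 55 were higher in tumors and none was lower, and at 75 of the closing list, of which 70 were lower and none was higher. Every called member thus had the direction of the list that supplied it. Over the whole lists, 89.5% of opening regions were higher and 95.3% of closing regions lower. These are the shares to set beside the count of each group. The counts by group show which genes each list supplied and how large the differences were, and are not evidence that a group moved more often than other listed genes. The cuticle and immune groups, like the adhesion group, hold only genes of the study's lists.

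Of the JAK/STAT genes, 5 had a paired region, all from the opening list. All 5 regions were more open in tumors than in discs driven by a JAK/STAT ligand, with a median log2 fold change of 1.95. Of all regions 16.3% were higher, and of the opening list 89.5%. The ligand genes os, upd2 and upd3 form a cluster on X. At the os region (chrX:18203129-18203958), tumors had 189 (early) and 301 (late) CPM, against 99.1 and 129 CPM in Upd discs and 92.2 to 143 CPM in wild types, a log2 fold change of 1.10 ± 0.21 (SE). At the upd3 region (chrX:18171109-18171510), levels were 20.9 and 27.9 CPM in tumors, 7.36 and 7.46 CPM in Upd discs and 4.55 to 6.70 CPM in wild types (1.73 ± 0.25). At the upd2 region (chrX:18139292-18139489), they were 6.65 and 13.6 CPM in tumors, 2.45 and 2.91 CPM in Upd discs and 1.11 to 2.67 CPM in wild types (1.95 ± 0.38). At each of the ligand regions the late tumor was the higher of the 2 tumors. The upd2 call was lost without the late tumor (adjusted p = 0.019) and the os call without Upd Rep1 (adjusted p = 0.014), and the os call was also lost with loess offsets (adjusted p = 0.0101).

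Of the 2 listed genes downstream, Imp encodes an RNA-binding protein and chinmo a transcription factor known as a Stat92E effector. At the Imp region (chrX:10702658-10703155), tumors had 84.8 and 83.9 CPM, Upd discs 15.03 and 22.1 CPM and wild types 5.36 to 9.60 CPM, with 2.17 ± 0.21 for tumor over Upd. Upd discs stood between the others there, with both libraries above every wild type, as they were at the upd3 region. At the chinmo region (chr2L:1669208-1669524), tumors had 35.4 and 34.5 CPM, Upd discs 7.05 and 7.46 CPM and wild types 4.37 to 8.18 CPM (2.26 ± 0.22). At this region the Upd values lay within the range of the wild types. No other region was paired with chinmo here. The paper counts chinmo among its potential direct Stat92E targets, which it required to have a region opening in both tumors and Upd discs. Its text does not say which region it used for chinmo, so that region may differ from the one given here. No region was paired with the receptor dome, the kinase hop, Stat92E itself or the feedback inhibitor Socs36E.

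Of 13 regions of Jun kinase and AP-1 response genes, 12 came from the opening list, of which 11 were higher in tumors and 1 did not pass. The 1 from the closing list was lower. Of the opening list 89.5% were higher and of the closing list 95.3% lower, against 16.3% and 16% of all regions. The 13 regions had a median log2 fold change of 2.57 and adjusted p-values of the called regions between 4.2e-07 and 0.00011. At the Ets21C region (chr2L:548673-548905), of an ETS factor, tumors had 54.3 and 63.4 CPM, against 3.99 and 2.91 CPM in Upd discs and 2.33 to 5.36 CPM in wild types, a log2 fold change of 4.10 ± 0.25. At the Ilp8 region (chr3L:17026997-17027913), of the relaxin-like hormone by which damaged or overgrown discs delay pupation, tumors had 374 and 400 CPM, Upd discs 29.7 and 45.7 CPM and wild types 17.9 to 28.9 CPM (3.36 ± 0.20). At the puc region (chr3R:3942722-3943386), of the phosphatase that restrains Jun kinase, tumors had 84.3 and 159 CPM, Upd discs 20.7 and 18.6 CPM and wild types 15.6 to 16.3 CPM (2.64 ± 0.27). Tumors were far above all other libraries at these regions, and at Ilp8 and puc both Upd libraries were slightly above all 3 wild types.

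The list also held cytoskeletal and growth factor genes. At the dia region (chr2L:20759331-20759794), of a formin that builds actin filaments, tumors had 109 and 123 CPM, Upd discs 9.81 and 11.8 CPM and wild types 7.90 to 9.71 CPM (3.42 ± 0.20). Pax, the focal adhesion protein Paxillin, had a small region (chr2L:19421384-19421518) with 6.45 and 5.70 CPM in tumors, 0.31 and 0.76 CPM in Upd discs and 0.49 to 0.74 CPM in wild types (3.41 ± 0.49). At the Pvf2 region (chr2L:7076333-7076739), of a PDGF/VEGF-like ligand, tumors had 28.3 and 16.7 CPM, Upd discs 2.45 and 3.04 CPM and wild types 1.79 to 4.13 CPM (3.00 ± 0.34). The related ligand Pvf1 was the member that did not pass, with 2.54 and 5.21 CPM in tumors and 1.38 and 2.02 CPM in Upd discs (1.23 ± 0.46, adjusted p = 0.044), and it passed with the late tumor alone (adjusted p = 0.0059). The lower member was wgn, a TNF receptor, named after its values were seen, with 5.47 and 8.59 CPM in tumors, 25.9 and 30.6 CPM in Upd discs and 26.2 to 38.8 CPM in wild types (-1.96 ± 0.26).

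Ras and EGFR genes were found on both sides. Of 5 regions, the 3 from the opening list were higher in tumors and the 2 from the closing list were lower. Over the whole lists, 89.5% of opening regions were higher and 95.3% of closing regions lower, against 16.3% and 16% of all regions. The 3 higher ones belong to inhibitors of the pathway that it is known to induce itself. At the aos region (chr3L:16471874-16472154), of the secreted EGFR antagonist Argos, tumors had 41.3 and 38.6 CPM, Upd discs 1.53 and 2.53 CPM and wild types 1.79 to 3.40 CPM (4.26 ± 0.28). At the Mkp3 region (chr3L:19065303-19065971), of a MAPK phosphatase, tumors had 79.4 and 91.5 CPM, Upd discs 10.3 and 9.36 CPM and wild types 5.04 to 10.1 CPM (3.12 ± 0.20). At the sty region (chr3L:3422684-3423159), of Sprouty, the difference was smaller, with 164 and 154 CPM in tumors, 43.2 and 47.6 CPM in Upd discs and 55.5 to 63.9 CPM in wild types (1.81 ± 0.16). The 2 lower ones belong to S (Star) and rho (rhomboid), whose products release the EGFR ligand Spitz. At the S region (chr2L:1070043-1070460), tumors had 6.65 and 5.50 CPM, Upd discs 35.9 and 38.2 CPM and wild types 41.1 to 51.6 CPM (-2.63 ± 0.23). At the rho region (chr3L:1458431-1458825), tumors had 6.45 and 8.50 CPM, Upd discs 32.7 and 31.0 CPM and wild types 33.3 to 50.3 CPM (-2.06 ± 0.24).

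Regions of p53 and apoptosis genes were higher in tumors at 3 of 3, all from the opening list, of which 89.5% were higher. Of all regions 16.3% were. At the p53 region (chr3R:18876971-18877300), tumors had 32.1 and 50.01 CPM, Upd discs 3.53 and 2.40 CPM and wild types 1.93 to 2.31 CPM (3.81 ± 0.31). At the viaf region (chr3L:11984982-11985472) the log2 fold change was 2.88 ± 0.30. At the rpr region (chr3L:18394935-18395810), of the cell death inducer Reaper, a region open in every library, tumors had 491 and 523 CPM, Upd discs 107 and 133 CPM and wild types 113 to 133 CPM (2.08 ± 0.16).

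Among growth and temporal regulators, the 4 regions from the opening list were higher in tumors and the 1 from the closing list was lower. Over the whole lists, 89.5% of opening regions were higher and 95.3% of closing regions lower, against 16.3% and 16% of all regions. At the tup region (chr2L:18877105-18877593), of the LIM-homeodomain factor Tailup, tumors had 63.1 and 66.3 CPM, Upd discs 3.37 and 3.29 CPM and wild types 2.33 to 4.32 CPM (4.28 ± 0.23). At the S6k region (chr3L:5800816-5801289), of a growth kinase, tumors had 163 and 207 CPM, Upd discs 20.1 and 24.9 CPM and wild types 19.8 to 22.7 CPM (3.04 ± 0.19). Imp and chinmo, described above, are the other 2 higher members and are known from neural stem cells as early factors that give way to Syp. The Syp region (chr3R:16595636-16596421) was the lower member, with 18.6 and 13.5 CPM in tumors, 75.7 and 80.6 CPM in Upd discs and 67.9 to 91.5 CPM in wild types (-2.31 ± 0.21). Its Upd values lay within the wild type range.

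Regions of adhesion, cytoskeleton and matrix genes were higher in tumors at 12 of 12, with a median log2 fold change of 2.85. This list was taken from the opening list alone, so its direction was fixed by the choice. At the Chd64 region (chr3L:4119066-4119492), of a calponin-like actin-binding protein, tumors had 56.7 and 69.0 CPM, Upd discs 4.60 and 5.31 CPM and wild types 4.42 to 5.47 CPM (3.66 ± 0.23). At the Bsg region (chr2L:8085538-8086150), of the membrane protein Basigin, tumors had 118 and 139 CPM, Upd discs 9.05 and 11.6 CPM and wild types 7.59 to 10.2 CPM (3.63 ± 0.21). The regions of Tig, mfas, spir and Tsp had log2 fold changes of 2.88 to 3.03, and in all 6 the Upd discs had at most 11.6 CPM.

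Immune genes were also found on both sides. Of 15 regions, the 11 from the opening list were higher and the 4 from the closing list were lower in tumors, with a median log2 fold change of 1.76. Over the whole lists, 89.5% of opening regions were higher and 95.3% of closing regions lower. At the PGRP-LB region (chr3R:7280485-7280886), of a peptidoglycan-degrading inhibitor of the Imd pathway, tumors had 30.9 and 61.4 CPM, Upd discs 8.59 and 7.34 CPM and wild types 4.61 to 6.80 CPM (2.56 ± 0.31). At the nec region (chr2R:3045685-3046218), of a serpin that restrains Toll activation, tumors had 61.6 and 74.7 CPM, Upd discs 12.1 and 12.9 CPM and wild types 15.1 to 17.7 CPM (2.45 ± 0.20). Regions of nahoda, spz3, Tg and Idgf4 had log2 fold changes of 2.08 to 2.51. The 4 lower ones, named after their values were seen, were those of the receptor PGRP-LC (-1.71 ± 0.32), the Toll-family receptor 18w (-1.55 ± 0.28), the ligand gene spz6 (-1.31 ± 0.19) and the recognition protein GNBP3 (-1.28 ± 0.23), of which GNBP3 did not pass without Upd Rep2 (adjusted p = 0.015). Among the higher members, Listericin did not pass without Upd Rep2 (adjusted p = 0.042) and vir-1 with all 7 libraries in 1 fit (0.029).

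**Figure D4:**
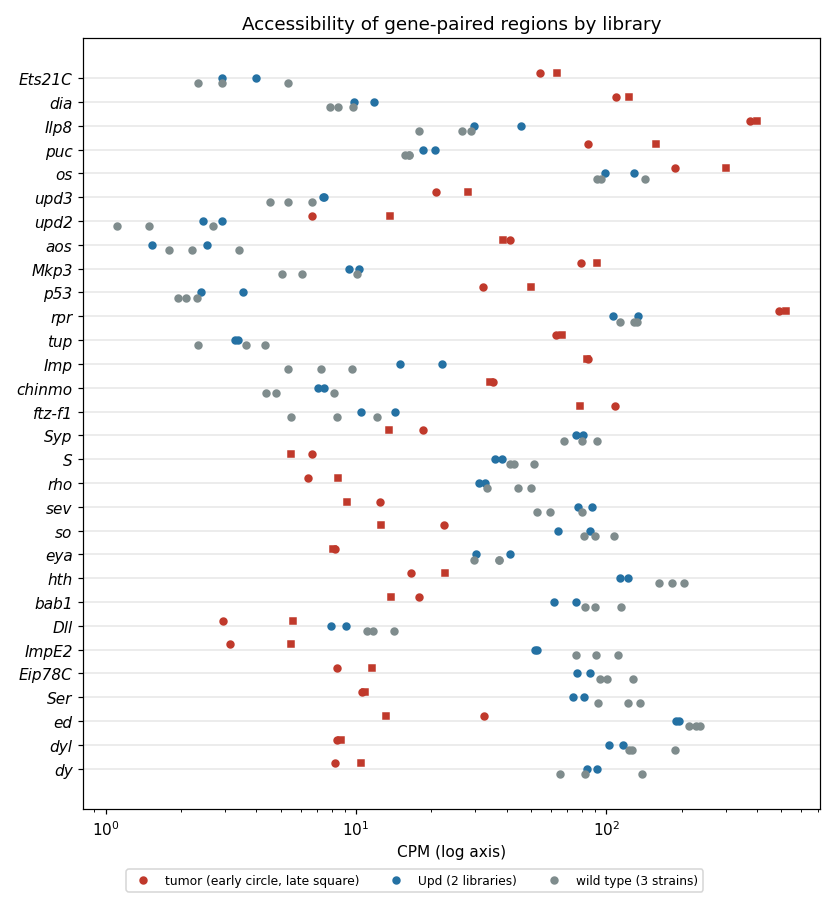
Level in CPM (logarithmic axis) of 30 regions paired with listed genes, 1 row a region, with red for the tumors (circle early, square late), blue for the 2 Upd libraries and grey for the 3 wild types. Red points lie right of blue and grey from Ets21C to ftz-f1 and left of them from Syp to dy. Blue lies between red and grey in several rows, such as Imp, upd3 and hth, and Dll is the row that did not pass the threshold.

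Regions of genes that build the eye, all 13 of them from the closing list, were less open in tumors than in Upd discs at 11, while none was higher and 2 did not pass (16% of all regions and 95.3% of the closing list were lower). The median log2 fold change over these retinal determination and photoreceptor genes was -1.95. At the sev region (chrX:10972960-10973868), of the receptor that specifies the R7 photoreceptor, tumors had 12.5 and 9.17 CPM, Upd discs 76.8 and 87.9 CPM and wild types 52.8 to 79.7 CPM (-2.96 ± 0.22). Among the retinal determination genes, so (chr2R:3312336-3312928) had 22.5 and 12.6 CPM in tumors, 64.1 and 86.4 CPM in Upd discs and 81.3 to 107 CPM in wild types (-2.15 ± 0.26). Its partner eya (chr2L:6537798-6538153) had 8.21 and 8.11 CPM in tumors, 30.1 and 41.1 CPM in Upd discs and 29.5 to 37.2 CPM in wild types (-2.13 ± 0.24). At gl (chr3R:14201945-14202147), of the photoreceptor factor Glass, the early tumor had 7.04 and the late one 2.41 CPM, against 19.2 and 25.4 CPM in Upd discs and 12.3 to 21.8 CPM in wild types (-2.38 ± 0.38). At so and gl the late tumor was the lower of the 2. Regions of klu and rst had log2 fold changes of -2.34 ± 0.18 and -2.04 ± 0.33. The members that did not pass were run, with 10.8 and 13.2 CPM in tumors and 19.3 and 20.5 CPM in Upd discs (adjusted p = 0.022), and eyg, with 2.74 and 2.90 CPM in tumors and 6.13 and 3.16 CPM in Upd discs (adjusted p = 0.19). The run region passed with total counts (adjusted p = 0.0067) and with the early tumor alone (adjusted p = 0.0099). Of the called members, toe did not pass without Upd Rep2 (adjusted p = 0.026), and sens did not pass without either Upd library, without the late tumor or with all 7 libraries (adjusted p = 0.012 to 0.026).

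Antennal and head selectors were lower in tumors at 8 of 9 regions, all from the closing list, with a median of -1.80. Of the closing list 95.3% were lower, and of all regions 16%. At the hth region (chr3R:6343822-6344734), of the antennal selector Homothorax, tumors had 16.6 and 22.7 CPM, Upd discs 113 and 122 CPM and wild types 162 to 204 CPM (-2.56 ± 0.20). Upd discs were below all 3 wild types there but far above the tumors. At the bab1 region (chr3L:1095918-1096406), of a factor of distal leg and antenna, tumors had 17.8 and 13.8 CPM, Upd discs 62.1 and 75.7 CPM and wild types 82.4 to 115 CPM (-2.14 ± 0.21). The regions of Dr, retn and bab2 had log2 fold changes of -2.48 to -1.80, and that of Sox21b had -1.62 ± 0.36 and did not pass without the late tumor, Upd Rep1 or Upd Rep2 (adjusted p = 0.011, 0.011 and 0.021) or with DESeq2 (0.013). The Dll region, of the antennal factor Distal-less, did not pass, with 2.93 and 5.60 CPM in tumors and 7.97 and 9.11 CPM in Upd discs (-0.93 ± 0.34, adjusted p = 0.039), but did with the early tumor alone (adjusted p = 0.0056). Lim3 and H15 did not pass without Upd Rep2 (adjusted p = 0.014 and 0.018).

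Of 11 ecdysone response regions, 9 came from the closing list, of which 8 were lower in tumors and 1 did not pass, and the 2 from the opening list were higher. The median was -1.56. Over the whole lists, 95.3% of closing regions were lower and 89.5% of opening regions higher, against 16% and 16.3% of all regions. Ecdysone is the steroid that drives the end of larval life, and its late larval targets include the ImpE and Eip genes. A region paired with both ImpE2 and Eip63E (chr3L:3513377-3513774) had 3.13 and 5.50 CPM in tumors, 51.8 and 52.8 CPM in Upd discs and 75.8 to 112 CPM in wild types (-3.52 ± 0.26). It did not stand alone, since the regions on either side, 0.355 and 0.535 kb away, were both among the 10 with the largest decrease (described below). At the Eip78C region (chr3L:21231417-21232235), of a nuclear receptor, tumors had 8.41 and 11.6 CPM, Upd discs 76.1 and 86.2 CPM and wild types 94.0 to 128 CPM (-2.99 ± 0.22). At the E23 region (chr2L:3341231-3341469), of a transporter that lowers the ecdysone response, tumors had 2.15 and 2.80 CPM, Upd discs 29.9 and 28.0 CPM and wild types 17.5 to 27.4 CPM (-3.50 ± 0.27). Blimp-1 and ImpE3 had -1.93 ± 0.18 and -1.90 ± 0.21. The 2 higher members were ftz-f1 and Cyp18a1, the second named after its values were seen. At the ftz-f1 region (chr3L:18784032-18784852), of a nuclear receptor known to act when ecdysone has fallen, tumors had 108 and 78.8 CPM, Upd discs 10.4 and 14.3 CPM and wild types 5.51 to 12.1 CPM (2.90 ± 0.23). At the Cyp18a1 region (chrX:18589830-18590376), of an enzyme that inactivates ecdysone, tumors had 64.1 and 86.8 CPM, Upd discs 27.3 and 25.8 CPM and wild types 14.99 to 23.4 CPM (1.51 ± 0.20). The region of sad, an enzyme of ecdysone synthesis, did not pass (adjusted p = 0.12).

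Notch and planar polarity genes were lower in tumors at 11 of 11 regions, all from the closing list, of which 95.3% were lower, with a median of -2.18 against -1.98 over that list. At the ed region (chr2L:4068890-4069640), of the adhesion protein Echinoid, tumors had 32.5 and 13.1 CPM, Upd discs 195 and 190 CPM and wild types 215 to 236 CPM (-3.14 ± 0.31). The Notch ligand Ser (chr3R:23001705-23002321) had 10.6 and 10.9 CPM in tumors, 73.8 and 81.9 CPM in Upd discs and 92.9 to 136 CPM in wild types (-2.85 ± 0.20). The other ligand, Dl (chr3R:15132492-15132797), had 5.28 and 5.02 CPM in tumors, 32.7 and 31.8 CPM in Upd discs and 29.4 to 37.5 CPM in wild types (-2.65 ± 0.24). Regions of fra and pk had -2.68 and -2.66, and that of nmo had -2.18 ± 0.28, whose wild types spanned 8.99 to 35.5 CPM and which did not pass with all 7 libraries in 1 fit (adjusted p = 0.015). The bib and stan regions did not pass without Upd Rep1 (adjusted p = 0.020 and 0.026).

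Of 25 regions of apical matrix and cuticle genes, 21 came from the closing list, of which 20 were lower in tumors and 1 did not pass, and the 4 from the opening list were higher. The median was -2.02. Over the whole lists, 95.3% of closing regions were lower and 89.5% of opening regions higher. At the dyl region (chr3L:4304290-4305184), of a zona pellucida protein of the apical surface, tumors had 8.41 and 8.69 CPM, Upd discs 102 and 116 CPM and wild types 124 to 188 CPM (-3.67 ± 0.20). At the related dy region (chrX:11672723-11673350), tumors had 8.21 and 10.4 CPM, Upd discs 84.0 and 91.8 CPM and wild types 65.2 to 139 CPM (-3.21 ± 0.21). Regions of Np, Reck, Sb and pio, whose products include matrix proteases, a protease inhibitor and a further zona pellucida protein, had log2 fold changes of -2.92 to -2.47. The 4 higher ones, named after their values were seen, were those of the chitin-binding obst-E (2.40 ± 0.21) and the cuticle proteins Lcp65Ag2 (2.30 ± 0.26), Cpr47Eb (2.01 ± 0.47) and Cpr12A (1.64 ± 0.25). Cpr47Eb, with 0.77 to 3.77 CPM in the 4 libraries, did not pass without Upd Rep1, Upd Rep2 or the late tumor (adjusted p = 0.032, 0.019 and 0.010) or with DESeq2 (0.022). Of the lower members, neo, mey and Cht5 did not pass without either Upd library and Cpr51A did not without Upd Rep2 (adjusted p = 0.011 to 0.069), and neo and mey also did not with all 7 libraries (0.026 and 0.012). The call of neo was lost as well without the late tumor (0.021) and with DESeq2 size factors (0.0103). The Cht3 region did not pass (-1.39 ± 0.43, adjusted p = 0.017) but did with total counts (0.0094).

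Markers of other cell types were few among the paired regions. Each had the direction of the study's list that supplied it, higher for the opening list and lower for the closing list. Of the opening list 89.5% were higher and of the closing list 95.3% lower, against 16.3% and 16% of all regions. Of the neuron markers, 3 of 4 regions were lower in tumors, at -2.31 for beat-IIIc, -2.14 for futsch and -1.72 for CadN, and Snap25 was higher, with almost no reads in Upd discs (counts given with the largest increases). The 1 glial region, moody, was higher (223 and 331 CPM in tumors, 101 CPM in each Upd library, 81.6 to 129 CPM in wild types, 1.46 ± 0.19). Of muscle genes, sls and rols were lower (-2.40 and -1.71) and Mlc2 was higher (1.64). The defining factors of neurons, glia, muscle and neuroblasts (elav, repo, Mef2, dpn) and every marker of hemocytes and trachea had no paired region, and so did all genes of the Hippo list. How far the cell types of the discs differed was not tested.

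The 10 largest increases and the 10 largest decreases (adjusted p below 0.01, a mean of at least 10 reads, no overlap of the groups) included regions with almost no reads in 1 genotype. For these the counts are given, since a fitted fold change has no meaning near 0. At the Snap25 region (chr3L:24168670-24168781), of a synaptic vesicle fusion protein, tumors had 61 and 179 reads, against 0 and 1 reads in Upd discs and 3 to 4 reads in wild types, a ratio of 224 with a 95% counting interval of 39.8 to 8869. A region on 2L (chr2L:14518154-14518260) had 27 and 103 reads in tumors and 0 in both Upd and all 3 wild type libraries, at least 40.4-fold higher in tumors against a floor of 3 reads over the Upd group. By FAIRE-seq this region was present in all libraries, with 7.22 and 18.7 CPM in tumors and 5.81 and 6.03 CPM in wild types. On X, 1 region (chrX:17687842-17687993) had 129 and 266 reads in tumors and 0 and 1 in Upd discs, and on 2R, 1 region (chr2R:11260547-11260701) had 72 and 164 reads in tumors and 0 and 3 in Upd discs. The wild types had 0 to 7 reads at these 2. By FAIRE-seq this X region had 16.1 and 32.2 CPM in early and late tumor, against 9.29 (CantonS) and 2.49 CPM (FRT82) in wild types. At this 2R region FAIRE-seq gave 9.79 and 10.6 CPM in tumors, against 2.28 (CantonS) and 18.7 CPM (FRT82) in wild types.

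A strong and well covered increase was found on 3L (chr3L:6456314-6457523), with 422 and 416 CPM in tumors, 17.8 and 21.0 CPM in Upd discs and 14.9 to 18.2 CPM in wild types (4.43 ± 0.18), and by FAIRE-seq 104 and 170 CPM in tumors against 35.2 and 37.4 CPM in wild types. The other increases were tup, above, a region on X (chrX:6502561-6502837, 4.49 ± 0.44) and 2 thinly covered ones (chr3L:12790442-12790581 and chr2L:10336677-10336804), with ratios of 29.3 (95% counting interval 7.79 to 248) and 22.7 (7.46 to 112). The 3L region of these 2 had 5 reads in the early and 58 in the late tumor, and its call was lost without the late tumor (adjusted p = 0.049). A region with a still larger fitted difference did not pass: at chr3L:23826222-23826434 the early tumor had 1193 and the late tumor 23508 reads, against 2 and 4 reads in Upd discs and 3 to 6 reads in wild types (adjusted p = 0.077). FAIRE-seq gave 20.7 and 68.9 CPM in early and late tumor and 1.63 and 2.49 CPM in wild types there (adjusted p = 0.00045).

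Of the 10 largest decreases, 2 lay beside the region paired with ImpE2. There, chr3L:3512474-3513021 had 7.23 and 7.63 CPM in tumors, 116 and 119 CPM in Upd discs and 136 to 181 CPM in wild types (-3.97 ± 0.20), and chr3L:3514310-3514563 had 1.96 and 1.45 CPM in tumors, 36.0 and 28.8 CPM in Upd discs and 28.4 to 41.9 CPM in wild types (-4.30 ± 0.30). At all 3 neighbouring regions both tumors were below every other library. Further decreases lay on 3L (chr3L:12908818-12909251, -3.97 ± 0.24), X (chrX:3240615-3240756, -4.40 ± 0.44) and 2R (chr2R:6100601-6100730, -4.19 ± 0.40). On 2R, chr2R:21144971-21145346 had 1 and 0 reads in tumors, 23 and 33 reads in Upd discs and 20 to 48 reads in wild types, a ratio of 60.1 (95% counting interval 10.4 to 2416). By FAIRE-seq both tumors had 0 CPM there, against 26.7 (CantonS) and 17.0 CPM (FRT82) in wild types. Closed chromatin and DNA that is missing in the tumor cross cannot be told apart at this region. A different pattern was found by ATAC-seq on 3R, at chr3R:11731902-11732001. There tumors had 0 and 1 reads, Upd discs 69 and 81 reads and wild types 0 to 1 reads. By FAIRE-seq this region had 6.99 and 6.37 CPM in tumors, against 7.34 (CantonS) and 5.397 CPM (FRT82) in wild types. The near absence of reads in tumors and wild types was thus not seen in that assay, which has no Upd library.

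Several of the most extreme regions also differed among wild type strains. One increase on X (chrX:11493762-11493913) had 31 and 113 reads in tumors and 0 in both Upd libraries, at least 44.7-fold higher against 3 reads over the Upd group, while FRT82 had 1 read and the other wild types 111 and 119. By FAIRE-seq it had 12.1 and 13.5 CPM in tumors, 8.80 CPM in CantonS and 7.06 CPM in FRT82. Among the decreases, chr2L:16729406-16729534 had 0 reads in both tumors, 32 and 26 in Upd discs and 0 in Optix-GFP but 75 (FRT82) and 90 (RAL-208) in the other wild types. FAIRE-seq gave 0 CPM there in both tumors and in FRT82, and 6.85 CPM in CantonS. The regions chrX:2810140-2810318 and chrX:2774519-2774858 had 0 reads in FRT82 but 40 to 110 in the others. By FAIRE-seq FRT82 had 0 CPM at both, against 4.89 and 5.87 CPM in CantonS. The 2 assays thus differed for FRT82 at the first 2 of these regions. With the 3 wild types in the same fit, none of these 4 passed (adjusted p = 0.12 to 0.22). Strain and genotype cannot be told apart at such regions. The wild types spanned more than 8-fold on the log2(CPM + 1) scale at 20 of the regions higher and 26 of those lower in tumors. Over all regions, 105 had such a span, and leaving them out gave 5949 regions higher and 5865 lower. A span among wild types cannot find variants carried only by the tumor or Upd cross. How many calls rest on strain was therefore not tested.

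Chromosome X stood apart from the other arms. On X, 808 of 6441 regions were higher in tumors (12.5%) and 1367 were lower (21.2%), with a median log2 fold change of -0.31. On the other arms together, 5133 of 30064 were higher and 4492 lower, with a median of 0.05, and chromosome 4 had few calls (30 higher and 21 lower of 374). The share of all reads in merged peaks that fell on X was 13.8% and 14.96% in early and late tumor, 18.3% and 17.8% in Upd discs and 13.6% (FRT82), 16.6% (RAL-208) and 18.2% (Optix-GFP) in wild types. The tumors were thus nearer to the FRT82 strain and the Upd discs nearer to Optix-GFP. The labels give no sex of the larvae, and its part in the difference was not tested. When X and the other arms were scaled separately, an alternative chosen after seeing the data, X had 1120 regions higher and 913 lower in tumors, so that the order of the 2 counts turned round, and no named call changed.

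**Figure D5:**
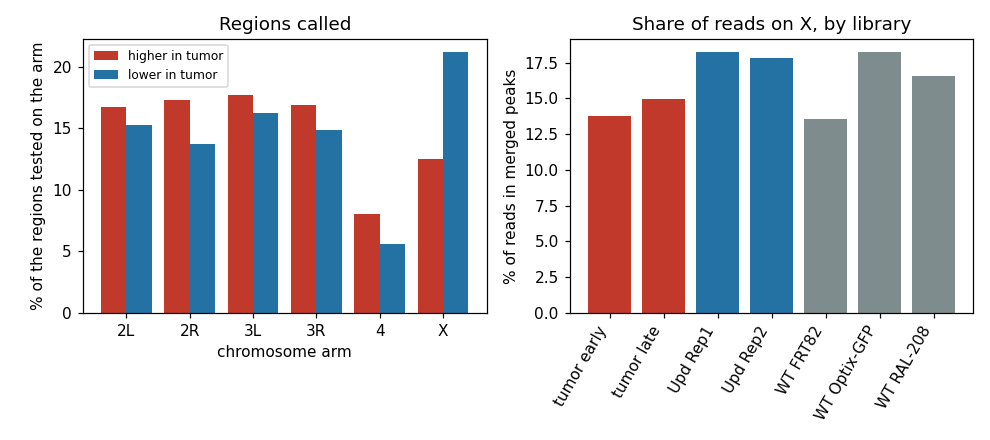
Left, percentage of the regions tested on each chromosome arm that were higher (red) or lower (blue) in tumors than in Upd discs. Right, percentage of the reads in merged peaks that fell on X in each ATAC-seq library, with 13.8 and 14.96 in the tumors, 18.3 and 17.8 in Upd discs and 13.6 to 18.2 in wild types.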

How the data were processed

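ATAC-seq and FAIRE-seq reads had been cleaned, mapped with Bowtie2 to build dm3 and filtered by the authors, who centred ATAC-seq reads on the cut site, called peaks per library with MACS2, merged the peaks of all libraries and deposited raw counts of reads per merged peak. The deposited peak files hold positions only. Counts were compared here between 2 tumor and 2 Upd libraries with edgeR 4.0.16 in R 4.3.3 (TMM factors, robust dispersions, glmQLFit and glmQLFTest, Benjamini-Hochberg adjustment over all regions with a read). The threshold was an adjusted p of 0.01. The standard error is the absolute log2 fold change over the square root of F. FAIRE-seq tumors and wild types were tested in the same way. A pseudocount of 1 CPM was added on log2 scales.

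Counting intervals (exact binomial) and floors cover counting error only. The code was tested on simulated counts. Merged peaks that are shared by neighbouring genes were not divided. Named regions were the 10 with the largest change in each direction (mean of at least 10 reads, no overlap of groups), and, for each gene list, up to 6 called regions with the largest change and up to 3 not past the threshold. Genes were joined to regions by the study's published pairs. The members and gene lists were chosen with earlier results of these data known. DNA motifs and sequences were not analysed here, since no dm3 genome was used. FAIRE-seq and ChIP-seq peak lists were not used. Alternatives were another normalization, DESeq2 1.42.0, a filter on low counts, all 7 ATAC-seq libraries, other thresholds and each library left out.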

Additional observations from a re-analysis of the deposited data

How the results depend on the processing

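No paired analysis was possible because the tumor labels carry no replicate numbers. Of the 48 values of the summary results under an alternative, 42 stayed within the range set for them, and the rest came from leaving out an Upd library. Over the 4 fits without 1 library, the regions higher in tumors numbered 3400 to 6958, those lower 3676 to 6473 and both together 7076 to 13431, and a group of 1 library was assumed to vary like the other group. DESeq2 called 5313 regions higher and 4646 lower, and the fit with all 7 libraries 4407 and 4625. At an adjusted p below 0.05 there were 8109 and 8432. Total counts moved the balance of calls, as given above. The 149 regions of the gene lists and of the largest changes kept their direction in all 12 alternatives where they were tested, and 122 of them also kept their side of the threshold. Of the 45 changes of a call at the other 27 regions, 30 came from leaving out a library. The planned count of motifs was not run. The early tumor had the lowest depth, which limits regions with few reads.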

Other observations

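Beyond single regions, some stretches of neighbouring merged peaks changed together without a break (chosen after their values were seen). The longest such run of regions higher in tumors than in Upd discs held 13 regions over 15.3 kb (chr3R:14292341-14307629, median log2 fold change 1.73), among them 1 paired with fru, which encodes a set of BTB-zinc finger factors. The longest run lower in tumors held 14 regions over 34.2 kb (chrX:13959729-13993926, median -2.22). Runs with a listed gene included 9 regions lower in tumors around sls over 23.6 kb (chr3L:2031763-2055346, median -2.19) and 8 around Blimp-1 over 13.8 kb (chr3L:5610371-5624140, median -2.16).

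By ATAC-seq, a stretch of 2R set the Upd discs apart from both other groups. From chr2R:3128437-3129014 to chr2R:3136231-3136889, 7 consecutive regions were higher in tumors than in Upd discs, with log2 fold changes of 0.72 to 3.03. The largest of them by reads (chr2R:3133614-3134718) had 596 and 734 CPM in early and late tumor, 155 and 187 CPM in Upd discs and 679 to 1080 CPM in wild types. At chr2R:3132791-3133130 the values were 99.5 and 84.2 CPM in tumors, 14.0 and 14.4 CPM in Upd discs and 102 to 112 CPM in wild types. The next regions outward (chr2R:3123276-3123379 and chr2R:3137406-3137857) did not pass (adjusted p = 0.019 and 0.24). FAIRE-seq gave another order of tumors and wild types. At chr2R:3133614-3134718 it had 351 and 479 CPM in early and late tumor, against 116 and 157 CPM in wild types (log2 fold change 1.61, adjusted p = 0.00039), the higher wild type value being that of FRT82, which had 994 CPM by ATAC-seq. Over the 7 regions the FAIRE-seq log2 fold changes were 1.28 to 2.26, so the wild types did not lie with the tumors there in that assay. Less open chromatin and fewer copies of the DNA in the Upd cross cannot be told apart from these counts. No gene was paired with these regions in the sources used here.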
